A study of Mus musculus with 24 samples.

Results

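Wild-type mouse brain endothelium was compared between the embryonic stage E15.5 and postnatal day 5 (P5). The comparison took the libraries whose labels name the groups E15.5_wt and P5_wt, 3 libraries each, so 6 of the 24 in the series. The series holds 8 groups, a wild type (wt) and an endothelial Sox17 knockout (KO) at each of 4 stages, and was set up to follow brain endothelium through development with and without the transcription factor Sox17. All mice of both genotypes carried Sox17flox/flox. The wt mice lacked Cdh5(PAC)-Cre-ERT2, a tamoxifen-activated recombinase driven by the VE-cadherin promoter, which the KO mice carried. Every animal still received tamoxifen. For E15.5, the pregnant female had 2 injections of 1 mg at days 11.5 and 13.5 after mating. For P5 and P9, each pup had 100 µg at P1, and adults had another dose and more injections. The step from E15.5 to P5 therefore also changes the tamoxifen schedule, and the stage and the schedule cannot be told apart. Brains of both stages were dissociated with the same enzyme kit, leukocytes carrying CD45 were depleted, and cells carrying CD31 (PECAM1) were captured on beads. The labels describe the replicates of a time point as independent and biological, and do not say how many animals went into a library.

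Brain capillary endothelium forms the blood-brain barrier. Tight junctions seal the clefts between its cells, vesicle traffic is held low, and carriers and efflux pumps decide which solutes cross. Wnt ligands from neural cells, read through Fzd4, Lrp5 or Lrp6 and β-catenin, induce this programme in the embryo, while pericytes, astrocyte endfeet and blood flow shape it around and after birth. Between these stages a mouse also passes from placental to milk feeding, begins to breathe, and its brain vessels keep growing.

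The 6 libraries held 12301779 to 18234011 counted reads each, on 20937 to 22010 genes. Values below are read counts relative to library size (CPM), with library sizes set by TMM, a method that takes them from the bulk of genes, and are means ± SD with n = 3 unless single libraries are listed. A count of 0 in 1 library allowed up to 0.165 to 0.244 CPM, by counting error only. The first principal component held 81.8% of the variance among the 6 libraries and separated the stages (−91.4 to −73.9 at E15.5, 77.5 to 96 at P5). The second held 7.43% and spread the E15.5 libraries, with replicate 2 at 37.8 and replicate 3 at −48.2. Pearson's r across genes was 0.9752 to 0.9875 within a stage and rested on genes that are not independent. In the X-linked Xist, replicates 1 and 3 of E15.5 had 1360 and 1370 CPM and replicate 2 had 0.544, while at P5 replicate 3 had 1220 and the others 0.553 and 0. The Y-linked Ddx3y showed the reverse, at 50.6 CPM in E15.5 replicate 2, at 76.9 and 85.3 CPM in P5 replicates 1 and 2, and at 0 in the other libraries. The sexes were thus not balanced between the stages.

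The fraction was checked against marker lists, because bead-captured cells can carry RNA of their neighbours. Endothelial identity genes summed to 5070, 6300 and 6140 CPM in the E15.5 libraries and to 18700, 21600 and 17900 CPM at P5. Neuron markers went the other way, from 2440, 1950 and 2710 CPM to 368, 283 and 485 CPM, and 12 of 12 fell (median log2 change −2.41). Tubb3, a neuronal tubulin, fell from 775 ± 113 to 43.2 ± 11.6 CPM. Endothelial markers were present in every library, and the E15.5 libraries held several times more RNA of neuron markers than those of P5. Pericyte markers summed to 1680, 2210 and 726 CPM at E15.5 and to 4840, 5830 and 4470 CPM at P5, where 10 of 11 rose. E15.5 replicate 3 was thus the lowest in pericyte markers. It was also the lowest in smooth muscle markers (43.7 CPM against 87.3 and 113), fibroblast markers (175 against 363 and 602) and ependymal and choroid plexus markers (169 against 593 and 668). Without that library, 9 of 11 pericyte markers rose and their median was 1.23 in place of 1.57.

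Glial and immune markers were higher at P5, and blood cell markers lower. Astrocyte markers summed to 237 to 304 CPM at E15.5 and 489 to 652 CPM at P5 (8 of 10 rose), and oligodendrocyte markers to 39.8 to 60.2 and 275 to 493 CPM (7 of 8 rose). Microglia and macrophage markers summed to 27.5 to 34.3 and 98.1 to 144 CPM (10 of 11 rose). Other leukocyte markers stayed at 6.84 to 12.1 CPM in all 6 libraries, with 3 of the 12 listed genes at 0 counts over the E15.5 libraries and 2 over those of P5. Ptprc, which encodes the depleted CD45, was at 0.558 ± 0.458 and 1.77 ± 0.166 CPM. Red cell markers summed to 2860 to 3760 CPM at E15.5 and 919 to 1490 CPM at P5 (9 of 10 fell), and platelet markers to 61.8 to 77.8 and 22.9 to 24.5 CPM (7 of 8 fell). Over the same step in KO, 3 of 10 red cell markers fell and 2 rose (median 0.07), and 4 of 8 platelet markers fell (median −0.61). The plot of summed markers by library shows the same values. Among the marker lists of cell types, the sums overlapped between the stages for other leukocytes. Neural progenitor markers summed to 379 to 447 CPM at E15.5 and 613 to 758 CPM at P5, although 6 of 10 fell.

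**Figure D1:**
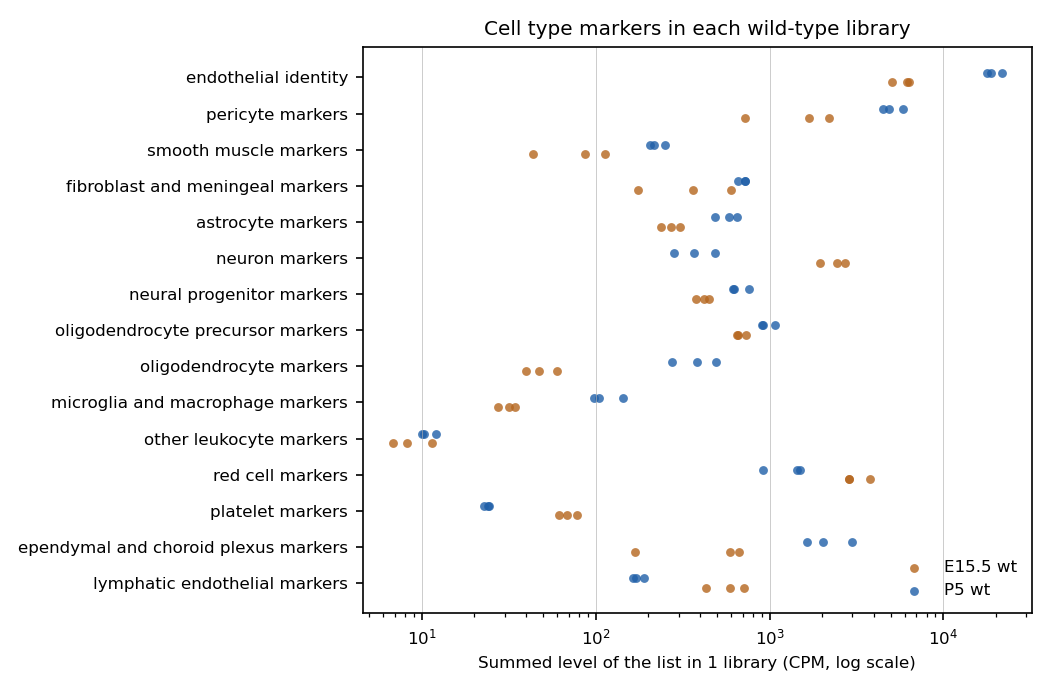
Summed level of each marker list in each of the 6 wild-type libraries (CPM, log axis; 1 point per library, E15.5 in brown and P5 in blue). Endothelial identity genes sum to 5070 to 6300 CPM at E15.5 and 17900 to 21600 CPM at P5, and neuron markers to 1950 to 2710 and 283 to 485 CPM.

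Of 17159 genes tested, 11433 (66.6%) differed between the stages at an adjusted p under 0.05 in edgeR's quasi-likelihood test. Higher at P5 were 6213 genes (36.2%) and lower were 5220 (30.4%). Among them, 3008 rose and 3227 fell at least 2-fold. The CPM ranges of the 2 groups did not overlap for 11817 genes (68.9%). Leaving out each of the 6 libraries in turn, 9424 genes passed with the same direction in every fit. Since endothelial identity genes rose and neuron markers fell, each endothelial list and many of its genes are also given on an endothelial scale. For it, library sizes were set so that the endothelial identity genes keep a constant sum. That scale lowers a log2 change by about 1.72 and puts the median of all genes at −1.59 instead of 0.09. On it, 506 genes (2.95%) were higher and 14266 (83.1%) lower. A gene that rose on both scales rose more than the endothelial identity genes did. In RNA from a whole fraction, fewer cells of a type and less RNA per cell cannot be told apart.

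**Figure D2:**
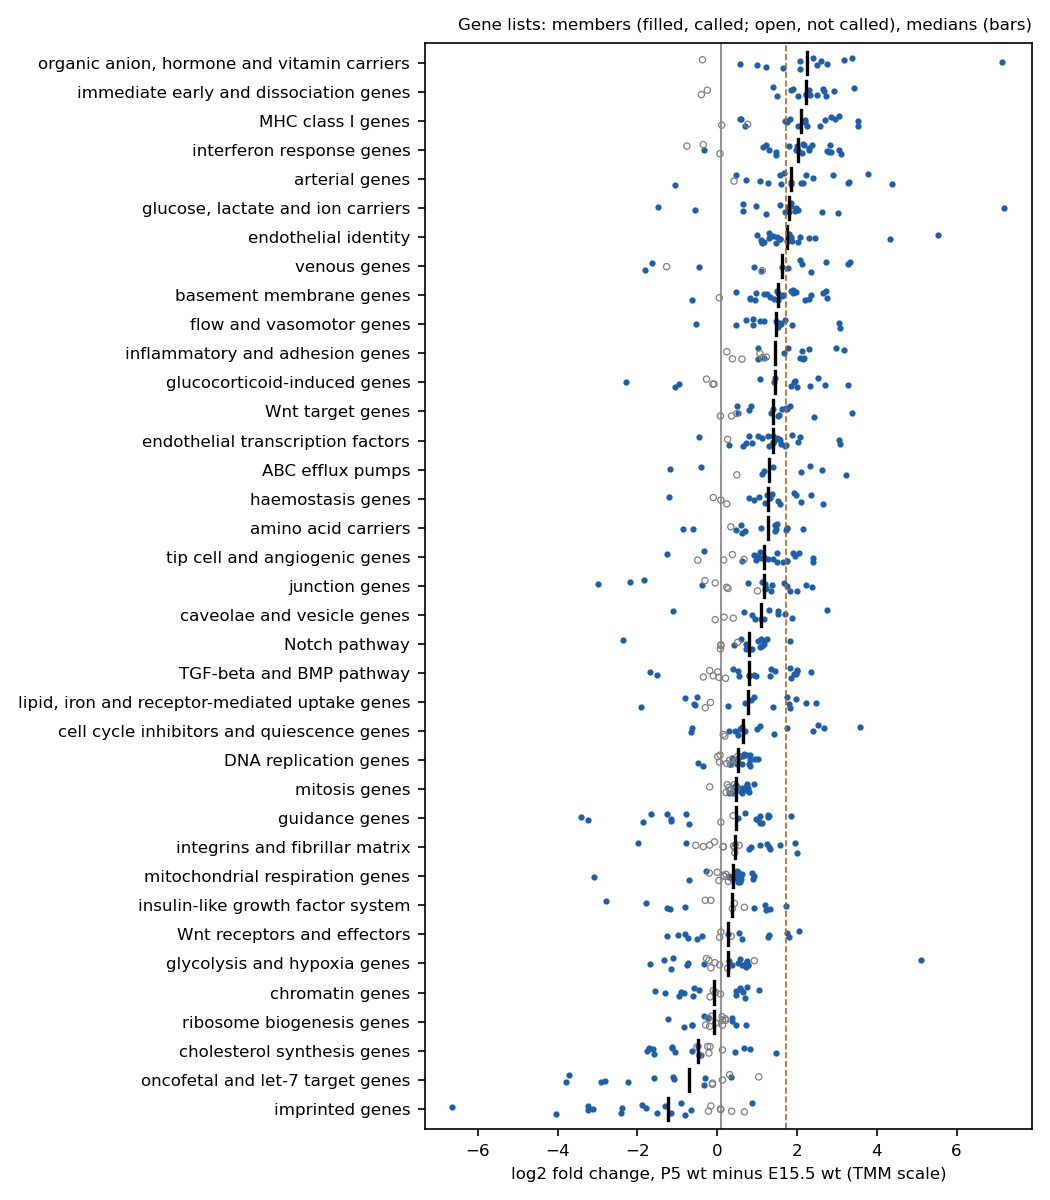
log2 fold change from E15.5 to P5 of each tested member of the 37 endothelial gene lists (TMM scale; filled points passed the test, open points did not, black bars are list medians). The grey line is the median of all genes at 0.09 and the dashed line, at 1.72, is the shift of the endothelial scale: the lists of organic anion carriers, immediate early, MHC class I, interferon response and arterial genes, glucose, lactate and ion carriers and endothelial identity have medians to its right, while the chromatin, ribosome biogenesis, cholesterol synthesis, oncofetal and imprinted lists have medians below 0.

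Per transcript length, mitochondrial transcripts led at E15.5, with mt-Cytb at 20900 ± 911 of the authors' length-scaled transcript shares (TPM). The neuronal tubulin gene Tuba1a was also among the 10 highest, at 6130 TPM. At P5 the leading nuclear genes were Bsg, which encodes basigin, the partner of monocarboxylate carriers, and Fth1, the ferritin heavy chain, both at 12300 TPM, followed by the tight junction claudin Cldn5 at 12200 TPM. At E15.5 these 3 genes were at 2080, 2120 and 3790 TPM.

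Among the largest rises, Gfap, Aqp4, Agt, Mobp and Mag are on the astrocyte or oligodendrocyte marker lists. Slc16a1, Slco1a4 and Ly6a are on endothelial lists, and Fam129a and Gsta4 are on no list. Gfap, the astrocyte filament gene, was at 0.439, 0.302 and 0.354 CPM at E15.5 and at 93.1, 62.2 and 73.8 CPM at P5. Aqp4, the water channel of astrocyte endfeet, went from 0.374 ± 0.359 to 41.5 ± 9.83 CPM. Mobp, a myelin gene, had 3 or fewer counts in all at E15.5, which gives a ratio of 218 (95% counting interval 74.2 to 1060). Fam129a went from 3.44, 4.59 and 3.36 to 158, 173 and 142 CPM (log2 5.32, adjusted p = 9.3e-17). Car4, described with the carriers, and Gpr37l1, Neu4 and Gpr17 were also among them. A lack of overlap between the stages was a condition for naming these rises, and it held for 68.9% of all genes tested.

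The steepest falls were embryonic globins and genes of neurons. Hba-x, an embryonic α-like globin, was at 102, 131 and 135 CPM at E15.5 and had no count at P5, so it was at least 1920-fold lower (against 3 counts over the group). Hbb-y, an embryonic β-like globin, fell from 136 ± 36.8 to 0.298 ± 0.0878 CPM. Neural patterning and identity factors followed. Isl1, a LIM homeobox factor, was at 22, 23.4 and 17.9 CPM at E15.5 and 0.277, 0.0604 and 0.191 CPM at P5. Prdm12, a factor of sensory and spinal neurons, went from 4.48 to 8.39 CPM to no count, at least 102-fold lower. Shox2, with 1 count at P5, gave a ratio of 469 (95% counting interval 83.8 to 18600). Fezf2, Tbr1 and Bcl11b, factors of cortical projection neurons, had log2 changes of −5.67, −5.42 and −5.41, and Lhx9, Pax7, Prph, Lamp5, Syt4 and Gnat1 changes of −5.96 to −5.42. The remaining gene of the 15 was the imprinted Magel2. Neuron markers moved with these genes, and their part in the falls was not tested.

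Most carriers of organic anions, hormones and vitamins rose. Of 14, 13 rose (median 2.24), and on the endothelial scale 9 rose and 3 fell (median 0.52). Slco1a4, an organic anion transporter of the blood-brain barrier, was at 2.05, 2.29 and 1.12 CPM at E15.5 and at 247, 300 and 263 CPM at P5, a 140-fold change (log2 7.13 ± 0.30 SE, adjusted p = 1.4e-14; endothelial scale 5.45). The stages did not overlap. Slco1c1, which takes up thyroxine, rose from 170, 240 and 217 to 2070, 2430 and 2090 CPM (log2 3.39, adjusted p = 5.4e-15; endothelial scale 1.66). Slc22a8, an organic anion exchanger, rose from 126 ± 40.9 to 1150 ± 62.8 CPM (log2 3.19; endothelial scale 1.48). Slc35f2, a solute carrier, had a log2 change of 2.40 (endothelial scale 0.68, adjusted p = 2.3e-07).

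Among glucose, lactate and ion carriers, 16 of 18 rose and 2 fell (median 1.79), with 4 higher and 6 lower on the endothelial scale (median 0.06). Slc16a1, the monocarboxylate carrier MCT1 that moves lactate and ketone bodies, lies on chromosome 3 (104638668 to 104658462, plus strand, mm10). It was at 15.2, 18.1 and 26.3 CPM at E15.5 and at 2740, 3330 and 2780 CPM at P5, a 147-fold change (log2 7.20 ± 0.22 SE, adjusted p = 9.3e-17; endothelial scale 5.48, adjusted p = 1.9e-15). Its chaperone Bsg rose from 732, 1140 and 955 to 6060, 8260 and 6470 CPM (log2 2.88; endothelial scale 1.15). The glucose carrier of the barrier, Slc2a1 (GLUT1), moved far less, from 839, 957 and 931 to 1400, 1550 and 1310 CPM. It rose on the TMM scale (log2 0.64 ± 0.12 SE, adjusted p = 8.0e-05) and fell on the endothelial scale (log2 −1.09, adjusted p = 4.3e-10). Slc2a3, the neuronal glucose carrier, fell from 33.3 ± 1.15 to 11.9 ± 0.103 CPM (log2 −1.48, adjusted p = 5.6e-06). Slc16a4, another monocarboxylate carrier, rose from 9.09 ± 2.29 to 75.4 ± 9.6 CPM (endothelial scale 1.32). Car4, a carbonic anhydrase of the capillary surface kept in the glycolysis and hypoxia list, rose from 10.2, 18.5 and 6.25 to 362, 478 and 381 CPM (log2 5.11, adjusted p = 8.0e-12; endothelial scale 3.39).

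Most amino acid carriers rose on the TMM scale, and none did on the endothelial scale. On the endothelial scale 2.95% of all genes rose and 83.1% fell (median of all genes −1.59). Of 16, 13 rose and 2 fell (median 1.27), while on the endothelial scale none rose and 10 fell (median −0.47). Slc7a5 and Slc3a2, the light and heavy chains of the large neutral amino acid carrier, had log2 changes of 1.47 and 1.10 (adjusted p = 4.3e-08 and 6.3e-09), and both fell on the endothelial scale (−0.28 and −0.63, adjusted p = 0.048 and 7.9e-07). Slc7a1, a cationic amino acid carrier, and Slc6a6, the taurine carrier, rose by 1.75 and 1.73, and their endothelial-scale values were 0.01 and 0.00. Slc38a5, a glutamine carrier, rose by 1.50, with an endothelial-scale value of −0.22 (adjusted p = 0.087). Slc7a6 and the creatine carrier Slc6a8 fell by 0.85 and 0.62.

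Efflux pumps divided by member. Among 10 ABC transporters 7 rose and 2 fell (median 1.30), and 3 rose and 5 fell on the endothelial scale (median −0.44). Abcb1a, P-glycoprotein, rose from 84.9, 118 and 114 to 506, 562 and 526 CPM (log2 2.33 ± 0.12 SE, adjusted p = 2.8e-13; endothelial scale 0.61, adjusted p = 1.8e-06). Abcc4 and Abcc6, organic anion pumps, had log2 changes of 2.62 and 3.24 (endothelial scale 0.89 and 1.52). Abcg2, the breast cancer resistance protein, rose by 1.13 and fell on the endothelial scale (−0.59, adjusted p = 5.7e-06). Abcc5 fell from 321 ± 12.9 to 141 ± 16.6 CPM.

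In lipid, iron and receptor-mediated uptake, 11 of 18 genes rose and 5 fell (median 0.77), with 1 higher and 11 lower on the endothelial scale (median −0.97). The exception on that scale was Tfrc, the transferrin receptor, which rose from 245, 337 and 362 to 1680, 2100 and 1500 CPM (log2 2.48, adjusted p = 4.0e-12; endothelial scale 0.75, adjusted p = 1.4e-06). Slc40a1, ferroportin, the iron exporter, had a log2 change of 1.76 (endothelial scale 0.03). Mfsd2a, the lysophospholipid carrier that also holds back transcytosis, rose from 321, 395 and 371 to 1310, 1350 and 1190 CPM (log2 1.82, adjusted p = 1.6e-10) (endothelial scale 0.09, adjusted p = 0.49). Lrp8, an apolipoprotein E receptor, rose by 0.84 and fell on the endothelial scale (−0.89). Lrp1 and Vldlr, lipoprotein receptors that neural cells also make, fell by 0.80 and 1.92.

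**Figure D3:**
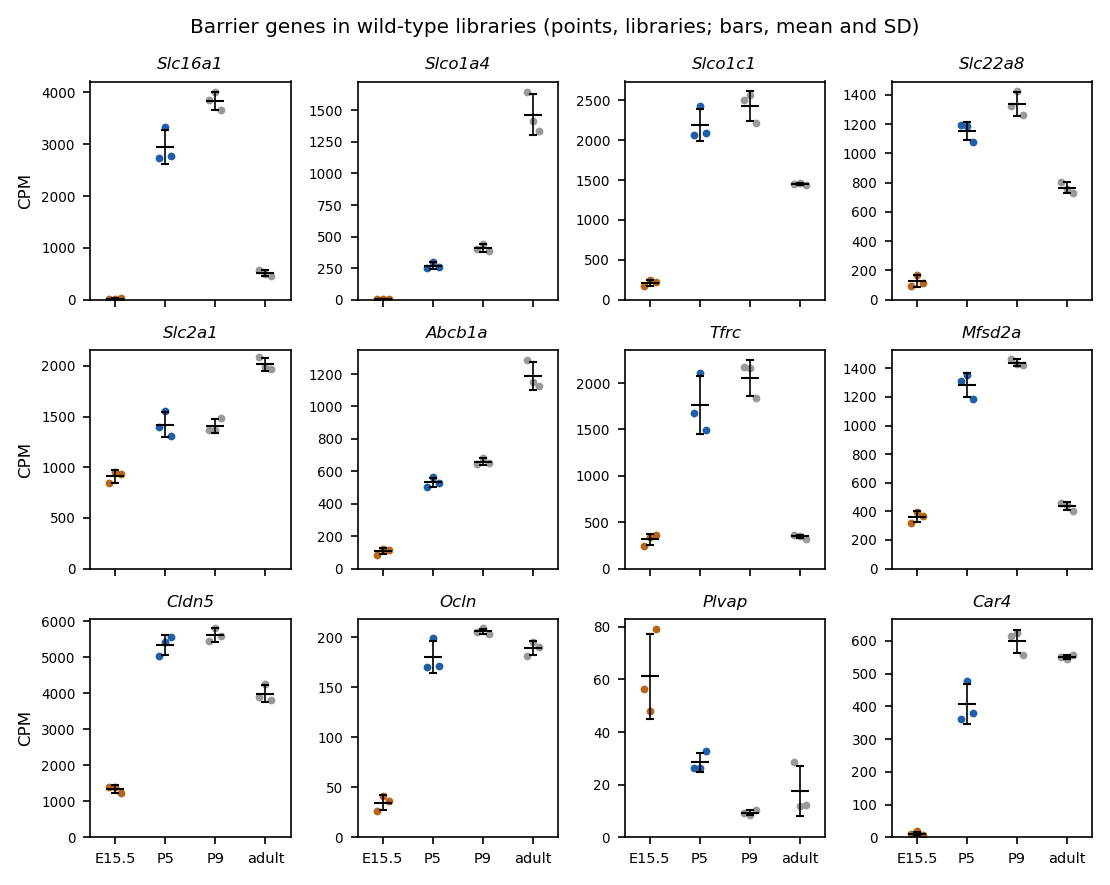
CPM of 12 barrier genes in the wild-type libraries of all 4 stages (points are libraries, bars the mean and SD). E15.5 and P5 are coloured. P9 and adult are in grey, from another dissociation kit, and adults had another tamoxifen schedule. Slc16a1 goes from 15.2 to 26.3 CPM at E15.5 to 2740 to 3330 CPM at P5, while Slc2a1 goes from 839 to 957 to 1310 to 1550 CPM and Plvap from 48.2 to 79.3 to 26.3 to 32.8 CPM.

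Of 22 junction genes, 13 rose and 4 fell (median 1.16), and 2 rose and 14 fell on the endothelial scale (median −0.59). Cldn5, the dominant claudin of brain endothelium, was at 1390, 1410 and 1220 CPM at E15.5 and 5030, 5440 and 5560 CPM at P5 (log2 1.99 ± 0.14 SE, adjusted p = 2.5e-11; endothelial scale 0.25, adjusted p = 0.074). The members past the test on both scales were Ocln, the occludin gene, at 34.7 ± 7.36 and 180 ± 16.3 CPM (log2 2.37; endothelial scale 0.65), and Cgnl1, which encodes the cytoplasmic plaque protein paracingulin, at 152 ± 24.5 and 709 ± 62.4 CPM (log2 2.22; endothelial scale 0.49). Lsr, the tricellular junction protein angulin-1, and Jam2, an adhesion molecule, rose by 1.75 and 1.82, with endothelial-scale values of 0.01 and 0.09. Tjp1 (ZO-1) and Cdh5 (VE-cadherin) rose by 1.19 and 1.20 and fell on the endothelial scale (−0.55 and −0.52). Falls were seen in Cgn (cingulin) from 26.3 ± 11.2 to 3.21 ± 0.346 CPM, Tjp3 (ZO-3) from 10.2 ± 2.8 to 2.12 ± 0.0605 CPM, Marveld3, and Jam3 (log2 −0.39, adjusted p = 0.0097). Cgn, Tjp3 and Marveld3 are known from epithelia. Of 8 ependymal and choroid plexus markers 6 rose and 2 fell (median 1.80), and their part in these falls was not tested.

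Of 15 caveolar and vesicle genes, 11 rose and 1 fell (median 1.10), with 1 higher and 10 lower on the endothelial scale (median −0.64). The fall was Plvap, the diaphragm protein of fenestrae and caveolae that leaky vessels make and barrier vessels lack. It was at 56.3, 48.2 and 79.3 CPM at E15.5 and 26.4, 26.3 and 32.8 CPM at P5 (log2 −1.10 ± 0.30 SE, adjusted p = 0.0028; endothelial scale −2.82), with no overlap between stages. Cav1, the caveolin that coats caveolae, rose by 1.71, and its endothelial-scale value was −0.01 (adjusted p = 0.93). The cavin Sdpr (Cavin2) exceeded the endothelial genes (log2 2.76; endothelial scale 1.03, adjusted p = 1.3e-08), and Ptrf (Cavin1) had 1.52 and −0.22.

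Canonical Wnt target genes rose or did not pass on the TMM scale, and the size of their change differed widely. Of 17 Wnt target genes, 14 rose and none fell (median 1.40), and on the endothelial scale 2 rose and 9 fell (median −0.34). Axin2, a feedback inhibitor induced in most cells that receive Wnt, was at 115, 133 and 84.5 CPM at E15.5 and 136, 97.2 and 120 CPM at P5. The stages overlapped, and the TMM log2 change of 0.08 ± 0.15 SE did not pass (adjusted p = 0.62; −0.01 with DESeq2 size factors), while on the endothelial scale Axin2 fell (−1.64, adjusted p = 3.6e-09). Lef1, a transcription factor of the pathway, rose from 54.8, 58.3 and 43.4 to 96.4, 98 and 77.6 CPM (log2 0.80) and fell on the endothelial scale (−0.95, adjusted p = 1.2e-06). Apcdd1, a Wnt inhibitor made by brain endothelium, rose from 779, 1070 and 852 to 2920, 3600 and 2620 CPM (log2 1.76; endothelial scale 0.02). Notum, a secreted enzyme that inactivates Wnt ligands, rose most, from 9.08, 21.1 and 12.2 to 158, 158 and 137 CPM (log2 3.39 ± 0.23 SE, adjusted p = 2.0e-11; endothelial scale 1.70, adjusted p = 2.0e-08). Ccnd1, cyclin D1, was the other target to exceed the endothelial genes (log2 2.43; endothelial scale 0.68). Znrf3 and Tnfrsf19, a receptor-removing ligase and a death-domain receptor, rose by 1.62 and 1.40, with endothelial-scale values of −0.10 (adjusted p = 0.51) and −0.34 (adjusted p = 0.0031).

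Of 17 Wnt receptors and effectors, 8 rose and 6 fell (median 0.27), with 1 higher and 14 lower on the endothelial scale (median −1.46). The receptor components of brain endothelium rose: Fzd4 from 18.6 ± 0.939 to 78.2 ± 6.38 CPM, the co-receptor Lrp5 by 1.26, the Wnt7 co-activator Adgra2 by 1.81 and the tetraspanin Tspan12 by 1.76 on the log2 scale. Fzd4 alone also rose on the endothelial scale (0.33, adjusted p = 0.015), where Adgra2 and Tspan12 had 0.07 and 0.02 and Lrp5 fell (−0.48). Ctnnb1, β-catenin, rose by 0.61 and fell on the endothelial scale (−1.13). Tcf7l2 and Fzd1, which neural cells also express, fell from 61.9 ± 9.64 to 25.6 ± 1.03 CPM and from 59.6 ± 3.25 to 30.2 ± 2.4 CPM.

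Endothelial transcription factors rose in 24 of 26 cases, and 1 fell (median 1.40; on the endothelial scale 4 rose and 15 fell, median −0.33). Klf2 and Klf4, which shear stress induces, were among the 4. Klf2 went from 53, 65.1 and 61 to 533, 413 and 539 CPM (log2 3.05 ± 0.21 SE, adjusted p = 1.9e-11; endothelial scale 1.34), and Klf4 from 48, 71.9 and 78 to 564, 533 and 566 CPM (log2 3.07; endothelial scale 1.36). Epas1, the hypoxia-inducible factor HIF-2α, rose by 2.08 (endothelial scale 0.34, adjusted p = 0.0015). Foxf2 and Foxq1, factors tied to brain endothelial identity, rose by 1.27 and 1.70, with endothelial-scale values of −0.47 and −0.02. Sox17, the gene deleted in the KO, was at 78.3, 85.5 and 108 CPM at E15.5 and 306, 227 and 298 CPM at P5 (log2 1.61 ± 0.25 SE, adjusted p = 5.3e-06; endothelial scale −0.10, adjusted p = 0.73). In the KO libraries it was at 9.12 ± 1.3 and 16.7 ± 2.11 CPM. Sox7 rose by 0.86 and fell on the endothelial scale (−0.87). Sox18 had 0.65 (adjusted p = 0.014), lost without E15.5 replicate 3 (0.43, adjusted p = 0.098) or P5 replicate 1 (0.55, adjusted p = 0.059). The fall was Nr2f2, the venous factor COUP-TFII (log2 −0.47, adjusted p = 0.01), which overlapped between stages and did not pass without E15.5 replicate 1 or P5 replicate 3 (adjusted p = 0.064 in both).

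Of 16 flow and vasomotor genes, 15 rose (median 1.48), with 2 higher and 7 lower on the endothelial scale (median −0.26). Without E15.5 replicate 3, 12 rose and 1 fell on the TMM scale (median 1.43). The endothelial nitric oxide synthase Nos3 rose from 222 ± 32.4 to 723 ± 74 CPM, with an endothelial-scale value of −0.03. Krit1, a cerebral cavernous malformation gene that restrains Klf2 and Klf4, fell by 0.54 (adjusted p = 1.3e-04). Immediate early genes, which dissociation itself can induce, rose in 15 of 17 cases (median 2.22; endothelial scale 10 higher, 3 lower, median 0.51). Fos went from 226, 193 and 275 to 1830, 1450 and 2020 CPM (log2 2.93, adjusted p = 2.0e-10; endothelial scale 1.21), and Egr1 and Zfp36 rose by 2.64 and 3.42. The heat shock gene Hspa1a did not pass (15.8 ± 10.3 and 12 ± 2.67 CPM, adjusted p = 0.28). The part of these genes in the Klf2 and Klf4 values was not tested.

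All 25 endothelial identity genes rose (median 1.76), and since they set the endothelial scale their own values on it are only relative to each other. Pecam1 (CD31) was at 407, 496 and 496 CPM at E15.5 and 1100, 1290 and 1060 CPM at P5 (log2 1.30), and Kdr and Flt1, the VEGF receptors 2 and 1, rose by 1.58 and 2.29. Pecam1 and Kdr were below the list's mean rise and had endothelial-scale values of −0.43 and −0.15, and Ptprb, a phosphatase of the Tie2 receptor, was above it (0.72). Ly6c1 and Ly6a, surface antigens of adult brain endothelium, stood out. Ly6c1 rose from 5.86, 13.7 and 12.5 to 192, 249 and 210 CPM (log2 4.32; endothelial scale 2.62), and Ly6a from 0.879, 3.38 and 1.83 to 82.3, 110 and 113 CPM (log2 5.53; endothelial scale 3.88). Ly6 genes are close copies of each other, so their counts may be shared.

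Most sprouting genes rose on the TMM scale and fell on the endothelial scale, where 83.1% of all genes fell (median of all genes −1.59). Of 25 tip cell and angiogenic genes, 19 rose and 2 fell (median 1.18), with 1 higher and 15 lower on the endothelial scale (median −0.57). The one was Apln, the apelin peptide of tip cells, at 97 ± 5.63 and 507 ± 45.1 CPM (log2 2.39; endothelial scale 0.64, adjusted p = 0.0011). Its receptor Aplnr rose by 1.39 and fell on the endothelial scale (−0.35, adjusted p = 0.017). Angpt2, a ligand that destabilises vessels through Tie2, had a log2 change of 1.90 (endothelial scale 0.18, adjusted p = 0.5). Vegfa, made mainly by neural cells, fell from 128 ± 15.9 to 53.9 ± 14.3 CPM. In the Notch pathway 13 of 18 genes rose and 1 fell (median 0.80), and none rose and 17 fell on the endothelial scale (median −0.93). The endothelial ligand Dll4 rose by 1.09 and fell on the endothelial scale (−0.64), and the neural ligand Dll1 fell from 118, 122 and 152 to 25.6, 20.3 and 30.2 CPM.

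Arterial genes rose in 18 of 20 cases and 1 fell (median 1.85), with 6 higher and 6 lower on the endothelial scale (median 0.14). Fbln5 and Eln, elastic fibre genes that mural cells also make, rose from 19.2 ± 8.63 to 188 ± 14.5 CPM and from 33.2 ± 10.7 to 328 ± 47.3 CPM. Mgp, a calcification inhibitor, rose by 3.78 and Gkn3, a marker of brain arterial endothelium, by 4.39 (0.216 ± 0.0877 to 6.96 ± 0.842 CPM). Bmx, an arterial kinase, rose by 2.41. The gap junction gene Gja5 did not pass (12.6 ± 2.5 and 16.8 ± 3.55 CPM, adjusted p = 0.24) and fell on the endothelial scale (−1.31), and Efnb2, ephrin-B2, which neural cells also make, fell by 1.06. Of 15 venous genes 10 rose and 3 fell (median 1.62; endothelial scale 4 higher, 6 lower, median 0.07). Vwf, von Willebrand factor, rose from 296 ± 52.8 to 1510 ± 205 CPM and Tgm2, a transglutaminase, from 22 ± 4.58 to 221 ± 29.6 CPM, while Ackr1, a chemokine-binding receptor of venules, fell from 33.2 ± 8.35 to 9.43 ± 1.52 CPM. Smooth muscle markers moved with the arterial list (5 of 7 rose, median 1.72; Acta2 from 3.06 ± 1.03 to 29.3 ± 5.18 CPM), and their part in it was not tested.

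Cell division genes had medians above that of all genes on both scales, with small rises on the TMM scale. Of 30 mitosis genes 21 rose and none fell (median 0.48), and of 29 DNA replication genes 18 rose and 2 fell (median 0.51). Without E15.5 replicate 3, 16 mitosis genes rose and none fell (median 0.39), and 14 replication genes rose and 2 fell (median 0.45). On the endothelial scale all 30 and all 29 fell (medians −1.26 and −1.20), where 83.1% of all genes fell and the median of all genes was −1.59. Mki67, the proliferation antigen, was at 123, 143 and 99.9 CPM at E15.5 and 164, 202 and 193 CPM at P5 (log2 0.61 ± 0.16 SE, adjusted p = 0.0016; endothelial scale −1.13). Top2a and Cdk1 rose by 0.48 and 0.79 and fell on the endothelial scale (−1.26 and −0.94), as did Pcna and Mcm2 (1.03 and 0.80 against −0.70 and −0.94). The helicase gene Mcm7 fell by 0.48. Neural progenitors also divide, and 6 of 10 progenitor markers fell and 2 rose (median −1.43). Their part in the division genes was not tested. Among 18 cell cycle inhibitors and quiescence genes 14 rose and 2 fell (median 0.65; endothelial scale 4 higher, 13 lower, median −1.08). The CDK4/6 inhibitor Cdkn2b rose from 1.54, 2.11 and 1.89 to 22.3, 26.7 and 22.1 CPM (log2 3.58, adjusted p = 1.0e-13; endothelial scale 1.92). Cdkn1a (p21) rose by 1.08 and fell on the endothelial scale (−0.64), and the imprinted inhibitor Cdkn1c (p57) fell by 0.67.

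Basement membrane genes rose in 24 of 26 cases and 1 fell (median 1.52; endothelial scale 6 higher, 11 lower, median −0.21). Fn1, fibronectin, rose from 1260, 1580 and 1350 to 6780, 7960 and 6000 CPM (log2 2.31, adjusted p = 2.5e-12; endothelial scale 0.57). The laminin chains Lamb2 and Lama1 rose by 2.21 and 1.98, and Lama4 by 1.51 (endothelial scale 0.47, 0.25 and −0.23). Col4a1 and Col4a2, the main collagen IV chains, went from 2870 ± 319 to 6820 ± 996 CPM and from 2190 ± 230 to 5470 ± 567 CPM, and both fell on the endothelial scale (−0.49 and −0.42). Sparc, a matrix glycoprotein, rose by 1.91. The fall was Col15a1 (−0.64, adjusted p = 0.019), lost without E15.5 replicate 3, P5 replicate 1 or P5 replicate 2 (adjusted p = 0.062, 0.053 and 0.061). Pericyte markers moved with this list (Rgs5 at 495, 670 and 274 CPM and then 1890, 2320 and 1810 CPM; Atp13a5 by 3.73), and their part in it was not tested. Of 22 integrins and fibrillar matrix genes 10 rose and 2 fell (median 0.44; endothelial scale 0 higher, 19 lower, median −1.27), and without E15.5 replicate 3 the counts were 7 and 3 and the median 0.16. Of 25 TGF-β and BMP pathway genes 17 rose and 2 fell (median 0.80; endothelial scale 2 higher, 17 lower, median −0.93). Tgfbr2 and Acvrl1, receptors that restrain vessel growth, rose by 1.97 and 1.85, and the BMP target Id1 by 1.82 (endothelial scale 0.23, 0.11 and 0.10).

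Genes of antigen presentation and of the interferon response rose, many of them on both scales. Of 20 MHC class I genes 18 rose and none fell (median 2.11), and 9 rose and 5 fell on the endothelial scale (median 0.40). Of 26 interferon response genes 22 rose and 1 fell (median 2.03), and 10 rose and 6 fell on the endothelial scale (median 0.36). H2-K1, a classical class I heavy chain, rose from 9.23, 16.5 and 8.31 to 121, 162 and 119 CPM (log2 3.54 ± 0.25 SE, adjusted p = 4.2e-11; endothelial scale 1.82). H2-D1, the other classical chain, rose by 1.75 (endothelial scale 0.01), and H2-Q4 and H2-T23 by 3.05 and 2.58. B2m, the light chain, rose by 1.70 (endothelial scale −0.02, adjusted p = 0.87), the peptide pump subunit Tap2 by 2.96 and the immunoproteasome subunit Psmb8 by 2.71 (1.25 and 1.08). Class I heavy chains are close copies, and how reads were divided among them is not given in the sources used here. Irf7, a master factor of the interferon response, was at 3.51, 6.82 and 2 CPM at E15.5 and 24, 41.2 and 24.4 CPM at P5 (log2 2.82; endothelial scale 1.11). Isg15, a ubiquitin-like modifier, was at 2.78, 4.11 and 0.943 CPM and then 8.79, 21 and 12.1 CPM (log2 2.38, adjusted p = 6.9e-06; endothelial scale 0.66, adjusted p = 0.086). Gbp2, a guanylate-binding protein, and Irf1 rose by 3.05 and 2.12 (endothelial scale 1.35 and 0.42), and Bst2, tetherin, by 1.80 (0.11). Stat2 fell by 0.32 (adjusted p = 0.011; 0.079 without P5 replicate 3). Microglia markers, cells with their own class I and interferon transcripts, moved with both lists (Csf1r from 3.78 ± 0.799 to 23.2 ± 5.16 CPM), and their part was not tested.

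Promoters of these lists are shown because their members rose together and type I interferon acts through a known element, the interferon-stimulated response element, which the ISGF3 complex binds. The letters GAAANNGAAA were searched on both strands of RefSeq promoter windows of 300 bases (build GRCm38.p6). They occurred in 3.44% of 32851 windows and in 3.64% of the 11932 tested genes that have one. The share was 55% of the 20 interferon response genes with a window and 27.8% of 18 MHC class I genes. The interferon list names genes known to respond to interferon, so its share depended on its choice. A stretch of 5 of these windows follows 5′ to 3′ on the gene's strand, each starting upstream of the gene, with matches in capitals (the 3 of Isg15 and the 2 of Bst2 overlap each other, and a match on the opposite strand appears here as its reverse complement).
Isg15 (chr4:156200852-156200911, minus strand): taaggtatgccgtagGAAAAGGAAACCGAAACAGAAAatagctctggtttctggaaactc
Bst2 (chr8:71537558-71537617, minus strand): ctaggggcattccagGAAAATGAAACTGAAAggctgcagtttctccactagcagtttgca
Ifit3 (chr19:34583358-34583417, plus strand): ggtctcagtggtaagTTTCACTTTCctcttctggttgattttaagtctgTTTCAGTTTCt
B2m (chr2:122147533-122147592, plus strand): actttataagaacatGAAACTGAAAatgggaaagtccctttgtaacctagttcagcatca
H2-T23 (chr17:36032781-36032840, minus strand): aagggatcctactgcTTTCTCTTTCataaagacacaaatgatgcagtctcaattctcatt
The 11 interferon response genes with a match had a median log2 change of 2.18 and the 9 without one 2.02, and the 5 and 13 MHC class I genes had 1.76 and 2.19. A match is a description of the letters and not of a bound site. The looser letters TTCNNNGAA, of the interferon-γ-activated element, occurred in 8.3% of all windows and in 8.41% of the tested genes with one. They occurred in 35% of the interferon response genes and in 11.1% of the MHC class I genes. Psmb8 is an example of the last, with its match in capitals.
Psmb8 (chr17:34198083-34198142, plus strand): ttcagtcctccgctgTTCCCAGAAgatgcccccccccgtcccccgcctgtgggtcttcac

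Most imprinted genes fell. Of 22 imprinted genes, expressed from 1 parental copy and many of them regulators of fetal growth, 15 fell and 1 rose (median −1.24). All 22 were lower on the endothelial scale (median −2.94), where 83.1% of all genes were lower (median −1.59). H19, a noncoding RNA of the Igf2 locus, fell from 192, 284 and 256 to 12.7, 17 and 13.9 CPM (log2 −4.05 ± 0.24 SE, adjusted p = 1.8e-12). Its neighbour Igf2, a fetal growth factor, did not fall on the TMM scale. It was at 493, 633 and 246 CPM at E15.5 and 597, 926 and 675 CPM at P5, with overlap between stages (log2 0.68, adjusted p = 0.052), and it passed without E15.5 replicate 2 (0.99, adjusted p = 0.012) or P5 replicate 1 (0.81, adjusted p = 0.041), and with no filter on low counts (0.61, adjusted p = 3.2e-06). On the endothelial scale it fell (−1.08, adjusted p = 0.0022). Igf2 is also a product of pericytes and meningeal cells, whose markers were lowest in the same library, E15.5 replicate 3, and their part in its level was not tested. Mest, Peg3, Ndn and Nnat fell by 1.51, 1.88, 2.41 and 3.24, and Magel2 from 233, 220 and 124 to 2.14, 1.33 and 1.98 CPM. Peg3, Ndn, Nnat and Magel2 are strongly expressed in neurons, whose markers also fell, and the part of neurons in these falls was not tested. Grb10, an inhibitor of insulin receptor signalling, did not pass (198 ± 29.5 and 209 ± 14.6 CPM, adjusted p = 0.58), and the rise was Airn (log2 0.88, adjusted p = 0.0042), which fell on the endothelial scale (−0.86). In the insulin-like growth factor system 5 of 15 genes rose and 5 fell, near the shares over all genes (median 0.38; endothelial scale 0 higher, 13 lower, median −1.33). Without E15.5 replicate 3 the counts were 4 and 6 and the median 0.22. The binding proteins Igfbp7 and Igfbp4 rose by 1.72 and 1.20 (−0.01 and −0.54 on the endothelial scale), and the receptor substrates Irs1 and Irs2 fell by 1.18 and 1.25.

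Of 16 oncofetal and let-7 target genes 10 fell and 1 rose (median −0.70). On the endothelial scale 15 were lower (median −2.41), as were 83.1% of all genes (median −1.59). Igf2bp1 and Igf2bp2, fetal RNA-binding proteins of the Igf2 message, fell from 68.2, 62.2 and 101 to 4.29, 7.13 and 4.98 CPM and from 73.3, 65.2 and 84.7 to 6.36, 4.71 and 5.49 CPM (log2 −3.78 and −3.72, adjusted p = 2.1e-11 and 3.4e-13). Lin28b, which blocks the maturation of let-7, fell from 23.7, 21 and 15.4 to 2.28, 1.93 and 3.38 CPM (log2 −2.92 ± 0.32 SE, adjusted p = 3.9e-08). Igf2bp3 and Mycn, a growth-promoting factor of neural progenitors, fell by 1.09 and 1.58. The rise was Arid3b (0.35, adjusted p = 0.016), lost with DESeq2 size factors (0.26, adjusted p = 0.072), with no filter on low counts (0.28, adjusted p = 0.16) and in 3 of the 6 fits without 1 library. The let-7 miRNAs act by pairing their seed with sites in the 3′ UTR of their targets. Poly-A sequencing does not read mature miRNAs, so only the sequences are shown: 2 family members with the seed (bases 2 to 8) in capitals, then the first site of 4 genes that fell, with the seed match CTACCTC in capitals.
let-7a-5p: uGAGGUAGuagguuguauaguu
let-7g-5p: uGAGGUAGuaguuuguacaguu
Lin28b (chr10:45381022-45381046, minus strand): tcacccgggcgggaagtCTACCTCa
Igf2bp1 (chr11:95961778-95961802, minus strand): gtgctgtgcgaagtaaaCTACCTCa
Igf2bp2 (chr16:22059473-22059497, minus strand): aaacacacaaataaaagCTACCTCa
Igf2bp3 (chr6:49086787-49086811, minus strand): cgtgcatttttactcaaCTACCTCa
Sites were read from the longest 3′ UTR of each gene in GENCODE vM21 (GRCm38). CTACCTC occurred in 13 of the 16 listed genes and in 10.6% of 14413 protein-coding genes tested that have a 3′ UTR there. The list names let-7 targets, so its share was fixed by its choice. Lin28b and Igf2bp1 held 4 sites each and Igf2bp2 and Igf2bp3 held 1, while Nr6a1, with 8, did not pass (log2 −0.12, adjusted p = 0.65) and Mycn, with none, fell.

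Cholesterol synthesis genes fell in 11 of 21 cases and 4 rose (median −0.49; endothelial scale −2.20, with all 21 lower). Hmgcs1, an early synthase of the route, fell from 278, 224 and 244 to 86.4, 76.6 and 84.4 CPM (log2 −1.59 ± 0.14 SE, adjusted p = 1.2e-09). Fdft1 and Acat2, other enzymes of the route, fell by 1.61 and 1.70. Stard4, a cholesterol transfer protein, rose by 1.48 and fell on the endothelial scale (−0.25, adjusted p = 0.029). In the glycolysis and hypoxia list 11 of 25 rose and 7 fell (median 0.26; endothelial scale 1 higher, 23 lower, median −1.47), the 1 being Car4. Ldha and Eno1 rose by 0.77 and 0.78 and fell on the endothelial scale (−0.97 and −0.98), and Hk2 and Pfkp, a hexokinase and a phosphofructokinase, fell by 1.68 and 1.16. Of 27 mitochondrial respiration genes 17 rose and 3 fell (median 0.40; endothelial scale −1.31, all 27 lower). Of 20 ribosome biogenesis genes 4 rose and 6 fell, and of 20 chromatin genes 8 rose and 8 fell (medians −0.09 and −0.08). All of both lists were lower on the endothelial scale (medians −1.81 and −1.80). Over all genes tested, 36.2% rose and 30.4% fell on the TMM scale (median 0.09), and 83.1% were lower on the endothelial scale (median −1.59). The glycolysis and respiration medians lay above those of all genes on both scales.

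**Figure D4:**
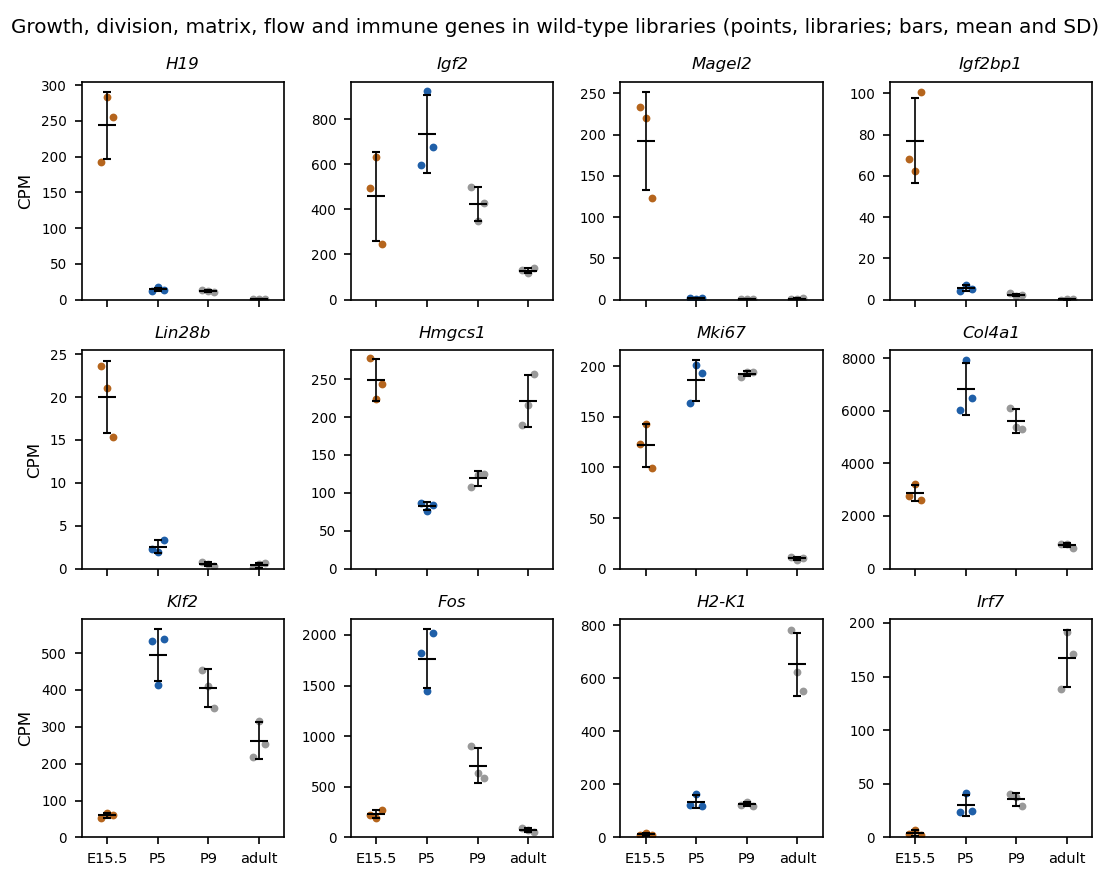
CPM of 12 genes of growth, division, matrix, flow and immune lists in the wild-type libraries of all 4 stages (points are libraries, bars the mean and SD). E15.5 and P5 are coloured. P9 and adult are in grey, from another dissociation kit, and adults had another tamoxifen schedule. H19 goes from 192 to 284 CPM at E15.5 to 12.7 to 17 CPM at P5, Mki67 from 99.9 to 143 to 164 to 202 CPM, and H2-K1 from 8.31 to 16.5 to 119 to 162 CPM.

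Of 17 glucocorticoid-induced genes 11 rose and 3 fell (median 1.44; endothelial scale 3 higher, 8 lower, median −0.28). The receptor itself, Nr3c1, rose from 25.9 ± 6.58 to 169 ± 26.8 CPM (log2 2.70; endothelial scale 0.97, adjusted p = 4.3e-08). Nr3c1 is itself on the list and among the 11. Of its targets there, Tsc22d3 rose by 1.44 (endothelial scale −0.28, adjusted p = 0.15), and Fkbp5, among the 3 falls, fell by 0.95. Inflammatory and adhesion genes rose in 12 of 18 cases and none fell (median 1.46; endothelial scale 5 higher, 4 lower, median 0.21), among them the leukocyte adhesion molecules Icam1 and Vcam1 (2.07 and 1.78) and Ptges, a prostaglandin E synthase (2.29; endothelial scale 0.55). Haemostasis genes rose in 14 of 18 cases and 1 fell (median 1.28; endothelial scale 3 higher, 9 lower, median −0.45). Of 22 guidance genes 11 rose and 9 fell (median 0.46). The endothelial scale had 0 higher and 20 lower (median −1.27), and 83.1% of all genes were lower there (median −1.59). The endothelial receptors Robo4 and Plxnd1 rose by 1.86 and 1.07 (endothelial scale 0.12 and −0.67), and the neural genes Sema3f and Robo1 fell from 204 ± 24.2 to 19.2 ± 2.92 CPM and from 140 ± 52.7 to 14.7 ± 2.97 CPM.

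The KO libraries give the same step in separate animals. Between E15.5 and P5 the KO changed 11799 of 17159 genes (68.8%). In both genotypes and in the same direction were 10407 genes, which is 91% of those called in wt and 88.2% of those called in KO, and 3 went in opposite directions (Zfp54, AI661453 and Hbb-bs, named after their values were seen). The log2 changes of Slc16a1 were 7.20 in wt and 7.22 in KO, those of Slco1a4 7.13 and 7.93, of Cldn5 1.99 and 2.26, of Notum 3.39 and 3.67, of H2-K1 3.54 and 3.41, of H19 −4.05 and −4.15, and of Igf2bp1 −3.78 and −4.05. The test of the difference passed for 6 genes (0.035%), with 603 at an unadjusted p under 0.05. The KO mice also carried Cre-ERT2, which wt mice lacked, so Sox17 loss and the recombinase cannot be told apart in these differences. Tmem100, a BMP and Notch-responsive gene of arteries, rose less in KO: wt went from 3.51, 4.77 and 2.71 to 26.1, 27.4 and 31.6 CPM and KO from 7.09, 3.92 and 5.06 to 9.1, 13.7 and 11.1 CPM (difference −1.85, adjusted p = 0.028). Phlda3 and Eda2r, which p53 induces, did not pass in wt (log2 −0.25 and −0.22) and rose in KO (2.01 and 3.10) (differences 2.26 and 3.32, adjusted p = 0.028 and 0.029). Hbb-bs, Hbb-bt and Alas2, red cell genes, were lower in KO than in wt at E15.5 and close at P5 (differences 2.04, 1.95 and 1.89, adjusted p = 0.0019, 0.01 and 0.01). Hbb-bs and Hbb-bt are near-identical copies whose reads can be shared. With the 12 libraries of the 2 stages fitted alone no gene passed. With DESeq2's test 18 did, and the fits leaving out 1 library gave 1 to 16.

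**Figure D5:**
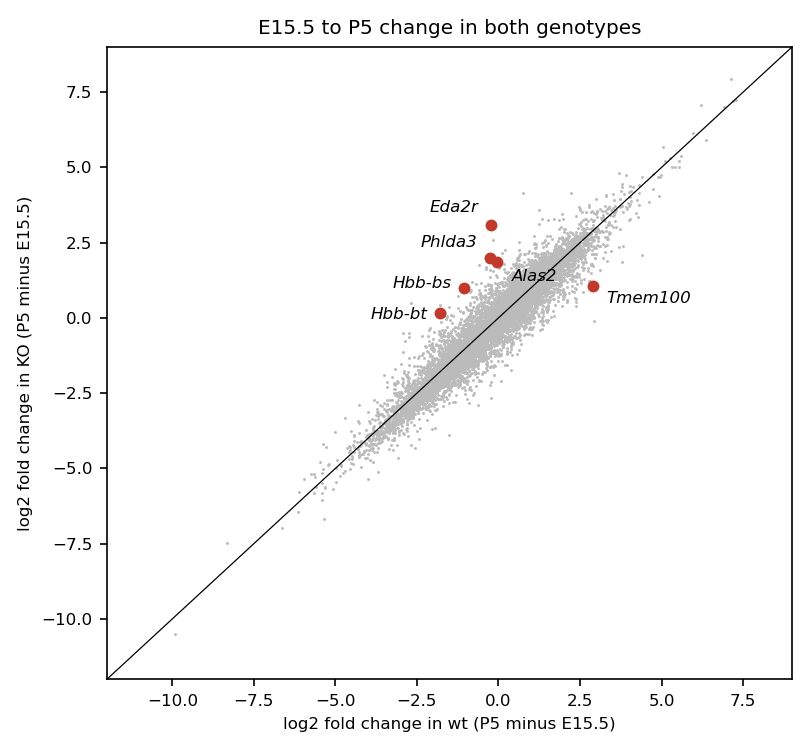
log2 fold change from E15.5 to P5 in KO (y axis) against wt (x axis), 1 point per gene tested, with the line of equal change. The 6 genes whose change differed between genotypes are in red: 5 lie above the line and Tmem100, at 2.91 in wt and 1.06 in KO, lies below it.

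Later wild-type stages are given as levels only, since P9 and adult brains were dissociated with another kit. The adults also had another tamoxifen dose and more injections, so age, kit and schedule cannot be told apart there. Slco1a4 was at 1.82, 270, 409 and 1470 CPM at E15.5, P5, P9 and in adults, so the adult level was the highest. Slc16a1 was at 19.9, 2950, 3840 and 508 CPM, highest at P9 and lower in adults than at P5. Ly6c1 (10.7, 217, 287 and 1330 CPM), H2-K1 (11.3, 134, 125 and 653 CPM) and Abcb1a (106, 531, 658 and 1190 CPM) were highest in adults. Fos was highest at P5 (231, 1760, 708 and 70.8 CPM), and Mki67 stayed at its P5 level at P9 and was low in adults (122, 186, 193 and 10 CPM). Lin28b continued downward (20, 2.53, 0.523 and 0.393 CPM).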

How the data were processed

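Poly-A RNA of captured brain endothelium was sequenced strand-specifically on the Ion Proton, per the labels' protocols. The submitters' processing notes list STAR 2.5.3a beside SAMtools 1.5, FastQC, Trim Galore 0.4.1 and the mm10 build. The annotation release and counting options are not given in the sources used here. The authors deposited, per gene and library, a raw read count on 1 strand, a TPM value and an FPKM value. The counts were tested, the authors' TPM served for levels between genes, and FPKM was not used.

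The counts of all 24 libraries were fitted with edgeR 4.0.16 (R 4.3.3): TMM scaling, 8 group means without covariates, 16 residual degrees of freedom, a filter keeping genes whose group mean reached 10 counts in any group, and the quasi-likelihood F test with Benjamini-Hochberg adjustment over 17159 genes (threshold 0.05, prior count 2). SE is the log2 change divided by the root of F. The step was also computed for KO and for the difference between genotypes. Alternatives were DESeq2 1.42.0 (size factors and test), limma 3.58.1, no filter, a 2-fold threshold, scaling to endothelial identity genes, the 12 libraries alone, a replicate block and leaving out each library. The script was tested on simulated counts. Replicates differed by more than sampling noise.

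The text names up to 15 rises and 15 falls whose higher group averaged 50 counts or more and did not overlap the other, up to 4 rises and 4 falls of each list, fixed members of the lists, up to 10 genes differing between genotypes, and the 10 highest TPM per group. Zfp54, AI661453, Nr6a1 and the Ifit3 promoter fall outside it and were chosen after their values were seen. The members and the 37 endothelial and 15 marker lists were chosen with earlier results of these data known. Intervals and floors cover counting error only. Some results are not reported here.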

Additional observations from a re-analysis of the deposited data

Results flagged for a closer look

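The step from E15.5 to P5 differed between KO and wt in 6 genes, by the test of the difference itself (log2, KO minus wt; edgeR, adjusted over all genes). Hbb-bs differed by 2.04 (adjusted p = 0.0019): wt went from 944, 1310 and 970 to 412, 481 and 662 CPM and KO from 189, 239 and 253 to 293, 511 and 554 CPM. Hbb-bt differed by 1.95 and Alas2 by 1.89 (adjusted p = 0.01 for each). All 3 are red cell genes, and at E15.5 the KO libraries lay below the wt libraries in each. Eda2r differed by 3.32 (adjusted p = 0.029) and Phlda3 by 2.26 (adjusted p = 0.028). Eda2r was at 26.2, 10.3 and 14.1 CPM in the P5 KO libraries and at 0.439 to 1.94 CPM in the other 9. Tmem100 differed by −1.85 (adjusted p = 0.028). In all of these, Sox17 loss and the Cre-ERT2 that only KO mice carried cannot be told apart. Over the 12 fits that left out 1 library, Hbb-bs passed in 12, Alas2 and Hbb-bt in 11, Phlda3 and Eda2r in 4 and Tmem100 in 3. Beyond these fits no library was tested as an outlier, since a group has 3 libraries.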

How the results depend on the processing

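The scale decides most directions near 0. Scaled to endothelial identity genes, wt had 506 higher and 14266 lower genes and KO 557 and 14132. On that scale the medians turned to −0.34 for Wnt target genes, −1.46 for Wnt receptors and effectors, −0.33 for endothelial transcription factors, −0.59 for junction genes, −0.47 for amino acid carriers, −0.44 for ABC efflux pumps and −0.97 for lipid, iron and receptor-mediated uptake genes. Further medians were −0.64 for caveolae and vesicle genes, −0.57 for tip cell and angiogenic genes, −0.93 for Notch pathway, −1.20 for DNA replication genes, −1.26 for mitosis genes, −1.08 for cell cycle inhibitors and quiescence genes and −0.21 for basement membrane genes. Further medians were −1.27 for integrins and fibrillar matrix, −0.93 for TGF-beta and BMP pathway, −0.26 for flow and vasomotor genes, −1.33 for insulin-like growth factor system, −1.47 for glycolysis and hypoxia genes, −1.31 for mitochondrial respiration genes and −0.28 for glucocorticoid-induced genes. Further medians were −0.45 for haemostasis genes, −1.27 for guidance genes, −0.16 for pericyte markers, −0.99 for fibroblast and meningeal markers and −0.27 for astrocyte markers. Single genes whose log2 change turned below 0 there were Abcg2 −0.59, Airn −0.86, Aplnr −0.35, Arid3b −1.39, Axin2 −1.64, B2m −0.02, Cav1 −0.01, Cdh5 −0.52, Cdk1 −0.94, Cdkn1a −0.64, Col4a1 −0.49, Col4a2 −0.42 and Ctnnb1 −1.13. The next were Dll4 −0.64, Eno1 −0.98, Foxf2 −0.47, Foxq1 −0.02, Gja5 −1.31, Grb10 −1.66, Igf2 −1.08, Igfbp4 −0.54, Igfbp7 −0.01, Kdr −0.15, Lama4 −0.23, Ldha −0.97 and Lef1 −0.95. Further values were Lrp5 −0.48, Lrp8 −0.89, Mcm2 −0.94, Mki67 −1.13, Nos3 −0.03, Pcna −0.70, Pecam1 −0.43, Plxnd1 −0.67, Ptprc −0.05, Ptrf −0.22, Slc2a1 −1.09, Slc38a5 −0.22 and Slc3a2 −0.63. The last were Slc7a5 −0.28, Sox17 −0.10, Sox18 −1.09, Sox7 −0.87, Stard4 −0.25, Tjp1 −0.55, Tnfrsf19 −0.34, Top2a −1.26, Tsc22d3 −0.28 and Znrf3 −0.10.

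With DESeq2 size factors and with its test, Axin2 and Grb10 were at −0.01. Against a 2-fold threshold 3977 genes passed in wt (1755 higher, 2222 lower), 4322 in KO (1886 and 2436), and for the difference between genotypes 0 (0 and 0). That difference gave 18 genes with DESeq2's test (10 higher, 8 lower), 64 without a filter (34 and 30) and 0 with the 12 libraries alone (0 and 0). Leaving out 1 library gave 10572 to 11118 genes in wt (5779 to 6021 higher, 4793 to 5097 lower), 11013 to 11418 in KO (5999 to 6185 and 5014 to 5233), and 1 to 16 for the difference (1 to 7 and 0 to 10). The difference fell to 1 gene without E15.5 KO replicate 1 and rose to 16 without E15.5 wt replicate 2. Leaving out 1 wt library moved Axin2 between −0.08 and 0.24, Grb10 between −0.01 and 0.20, Hspa1a between −0.65 and 0.28 and the chromatin median between −0.12 and 0.04. Without E15.5 replicate 3 of wt, Axin2 was at −0.08, Grb10 at −0.01, Hspa1a at 0.28, Eda2r at 0.14 and the chromatin median at 0.04. Without P5 replicate 1, Axin2 was at −0.03 and Alas2 at 0.18, and without E15.5 replicate 2 Alas2 was at 0.05. None of these single values passed the test. Hspa1a passed without a filter on low counts (−0.47, adjusted p = 0.0037). The cause was not tested. With limma, all 203 genes with a value in the text kept their direction and side of the threshold.

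The replicate numbers name different animals. Deviations of same-numbered wt libraries correlated at 0.0168, 0.0971 and 0.0797 across genes, and not every library correlated best with its own number. With the libraries of each comparison fitted alone, 10341 genes passed in wt, 11446 in KO and 0 for the difference. A replicate block added to those fits gave 10227 in wt (5092 higher, 5135 lower), 11066 in KO and 5 for the difference (5 and 0). Among the named genes the block gained Igf2 (0.68, adjusted p = 0.013). Arid3b did not pass with the block (0.26, adjusted p = 0.11) or in the same libraries without it (0.27, adjusted p = 0.14). No other named gene crossed the threshold in these wt fits. Genes under a few CPM are limited by depth, since 1 library at 0 allows up to 0.165 to 0.244 CPM.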

Other observations

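Of 14997 protein-coding genes tested, 5745 rose and 4632 fell (median log2 0.12). Of 509 long intergenic noncoding RNAs, 108 rose and 162 fell (median −0.17). Of 324 processed pseudogenes, copies of spliced transcripts that can share reads with their parent genes, 105 rose and 37 fell (median 0.54). Of 10 protein-coding genes of the mitochondrial genome, none rose and 3 fell (median −0.43).

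Lymphatic endothelial markers, a vessel type outside the brain tissue itself, summed to 716, 431 and 596 CPM at E15.5 and to 170, 164 and 191 CPM at P5, with no overlap. Of 5 tested, 2 rose and 2 fell, and the median was 0.93. Lyve1 and Mmrn1 rose (2.24 and 0.93), and Reln and Prox1, which neurons also make, fell (−2.17 and −1.33), so the sum and the median differ in direction. Oligodendrocyte precursor markers summed to 663, 648 and 735 CPM and to 1080, 906 and 912 CPM, and 5 of 8 rose and 1 fell (median 2.07). These values stand without a test of where the RNA came from.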
